A study of Mus musculus with 36 samples.

Results

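The core transcription factors of the cardiac program were followed through the life of the mouse heart: the GATA factors *Gata4*, *Gata5* and *Gata6*, the NK2 homeobox factor *Nkx2-5*, the HAND factors *Hand1* and *Hand2*, the MEF2 factors *Mef2a* and *Mef2c*, the serum response factor gene *Srf* and its coactivator *Myocd*. Members were taken by gene symbol from the annotation of the array, which gave 10 genes of the 20701 gene IDs listed there and 28 of its 45101 probe sets, each a group of probes for the same transcript. No expression value entered this choice. Of the 28 probe sets, 24 passed the expression limit of the study, a stage mean above 5. Each gene is read from its leading probe set, the one with the highest mean over all arrays, and the others are given beside it.

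Hearts of wild-type OF1 mice were sampled daily from E10.5 to E19.5 and in young adults (10 weeks) and old adults, with 3 arrays at each of the 12 stages and 36 in all. The old adults were 14 months old in the series description and 10 months old in the methods. The earliest stages, E10.5 and E11.5, have mixed-sex arrays alone. Every later stage has a female, a male and a mixed array, the last from hearts of both sexes combined. The values are log2 intensities after robust multi-array averaging, so that a difference of 1 is a 2-fold change. They were compared in limma, with p-values adjusted over all probe sets. The cardiomyocyte genes *Tnnt2* and *Ttn* had stage means of at least 12.4 and 12.6 throughout, and 0 of 4 liver genes had a mean above 5 at any stage, although the RNA protocol in the labels names liver. In whole hearts, fewer cells of a type and less RNA per cell cannot be told apart. The number of arrays limits the precision of each mean.

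These factors bind DNA next to each other in the regulatory regions of cardiac genes and act on each other's promoters. GATA proteins are zinc finger factors that pair with NKX2-5 and with the FOG cofactors, HAND proteins are basic helix-loop-helix factors that dimerize with E proteins, and MEF2 and SRF are MADS box factors. SRF binds the CArG box and is directed to muscle genes by myocardin, the product of *Myocd*, or to growth genes by other partners. Mice that lack *Gata4*, *Nkx2-5*, *Hand2*, *Mef2c* or *Srf* do not form a normal heart.

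Promoter sequence was given for 6 of the 10 members, in 8 windows that each hold the 250 bases before a RefSeq transcription start (assembly GRCm38.p6). Shown here are the promoters of *Srf* (chr17:46556163-46556412, minus strand) and *Hand2* (chr8:57320733-57320982, plus strand), because these were the windows with a CArG box or a GATA motif. Capitals mark a CArG box in *Srf* and a GATA motif in *Hand2*, which was searched on either strand as AGATAA and AGATAG, and with TGATAA besides TGATAG.
Srf: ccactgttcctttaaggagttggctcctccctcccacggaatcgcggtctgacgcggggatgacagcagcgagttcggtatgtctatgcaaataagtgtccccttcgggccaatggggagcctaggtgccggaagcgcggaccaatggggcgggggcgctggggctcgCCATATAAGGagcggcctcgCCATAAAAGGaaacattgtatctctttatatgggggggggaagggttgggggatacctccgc
Hand2: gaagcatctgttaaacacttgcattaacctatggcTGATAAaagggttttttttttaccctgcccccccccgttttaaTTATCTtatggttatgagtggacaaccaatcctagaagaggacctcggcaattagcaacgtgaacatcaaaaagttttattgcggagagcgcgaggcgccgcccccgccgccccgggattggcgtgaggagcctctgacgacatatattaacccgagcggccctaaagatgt
The *Srf* promoter held 2 CArG boxes, from base -82 to -73 and from -62 to -53 before the start, and 1.47% of the 32851 promoters of this length held at least 1. The *Hand2* promoter held 2 GATA motifs, at -215 to -210 and at -172 to -167, which 26.5% of all promoters had. No window of *Gata5*, *Nkx2-5*, *Mef2a* or *Mef2c* held a GATA motif, an NKX2-5 motif (TCAAGTG or TTAAGTG, in 4.67% of promoters), a CArG box or a MEF2 box (0.508%). Windows of *Gata5*, *Nkx2-5*, *Mef2c* and *Hand2* held an E-box (CANNTG), as did 66.2% of promoters. These are matches of letters within 250 bases, and no binding was measured.

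The factors did not share a single course, as shown in the plot of all arrays. *Gata4*, *Gata6*, *Nkx2-5* and *Hand2* declined slowly before birth and stood lower again in the adult. For *Gata6* the decline before birth held in its leading probe set alone. *Gata5* was under the expression limit from E14.5 on. *Myocd* stayed high until E19.5 and was low in both adult stages. *Hand1* and *Mef2a* showed no change past the test between E10.5 or E19.5 and the young adult. Between E10.5 and young adult, 7 of the 10 members were higher at E10.5 (adjusted p under 0.05), where 27.1% of all probe sets were and 48.5% of those above the expression limit, and 0 members were lower (35.9% of all probe sets). The median log2 fold change was 2.18 over the members, -0.19 over all probe sets and 0.41 over those above the expression limit. With a 4-fold limit, an adjusted p under 1e-05 and the expression limit, which the study used for its DEGs, 6 members were called, against 4.43% of probe sets.

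**Figure D1:**
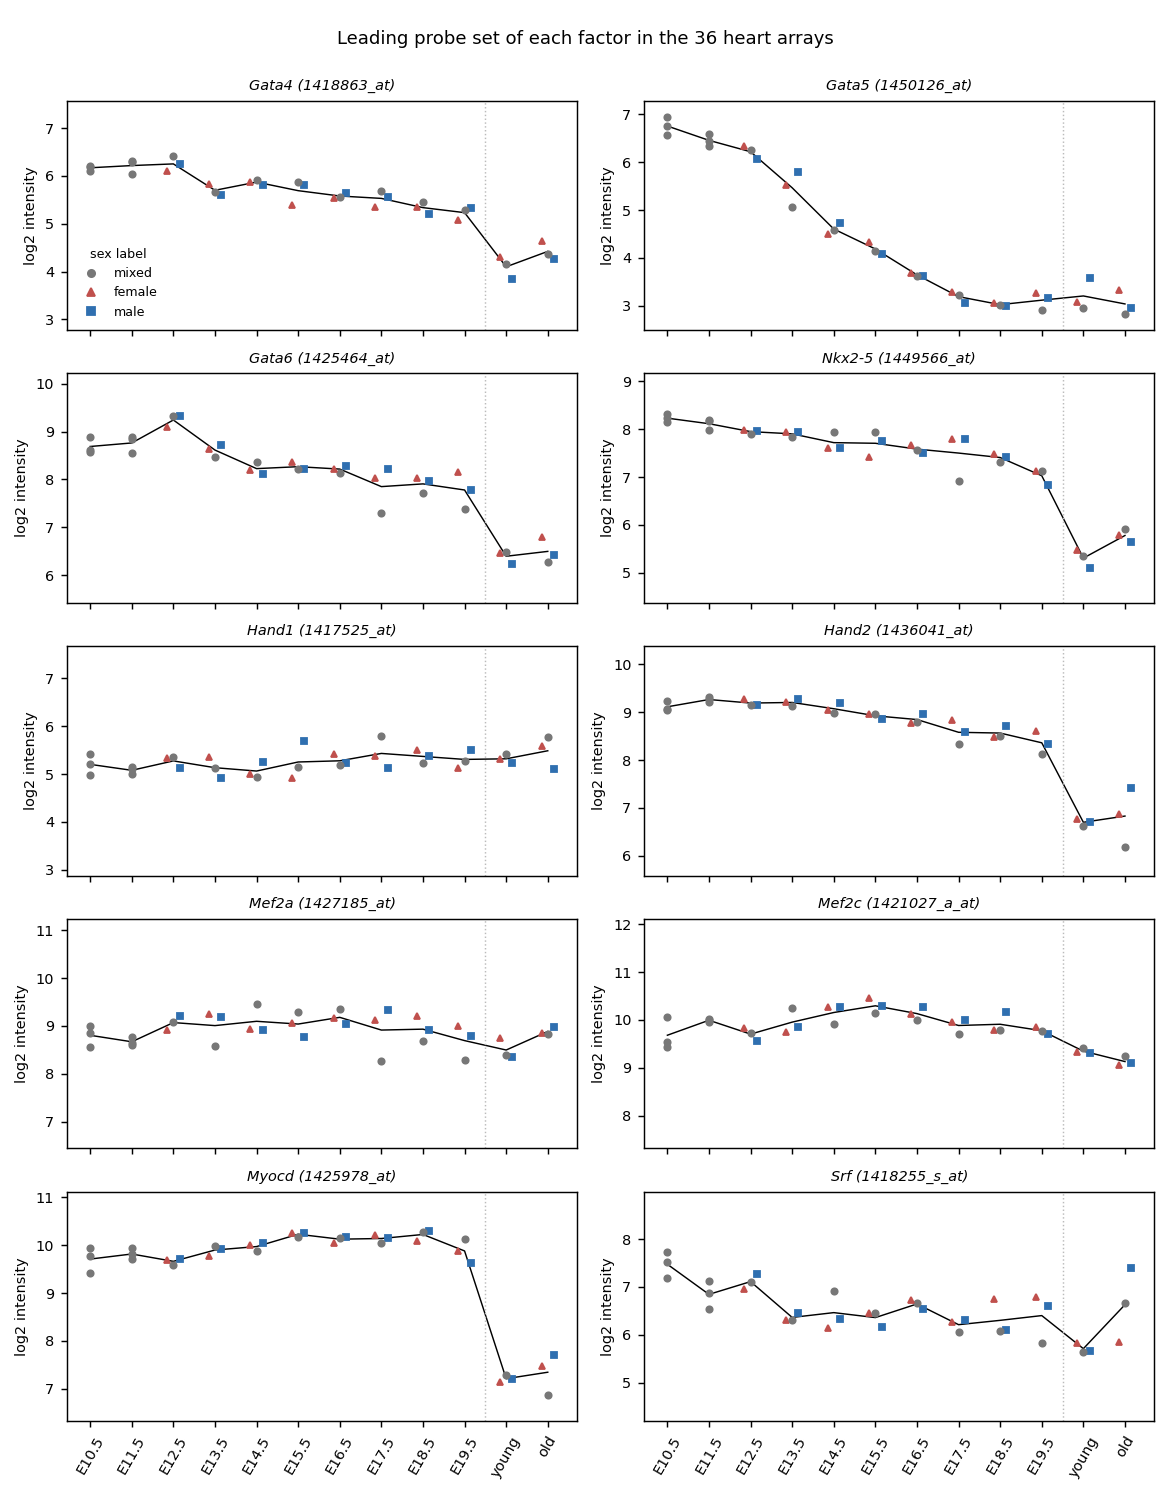
Log2 intensity (y axis) of the leading probe set of each of the 10 genes in the 36 arrays by stage (x axis), with symbols for the sex label and a line through the stage means; every panel spans the same number of log2 units, and a dotted line separates embryonic from adult stages. The *Gata5* mean is 6.76 in E10.5 hearts and 3.12 in E19.5 hearts, while *Myocd* stays between 9.66 and 10.23 before birth and lies at 7.21 in young adults.

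The GATA genes differed from each other in timing. *Gata4*, a factor of myocardium and endocardium, read 6.11, 6.19 and 6.21 in the 3 arrays of E10.5, then 5.08, 5.34 and 5.28 at E19.5 (female, male, mixed), and 4.30, 3.84 and 4.15 in young adults. All 30 embryonic arrays lay between 5.08 and 6.41, above the 6 adult arrays, which lay between 3.84 and 4.65. The difference between E10.5 and young adult was 2.07 (SE 0.14, adjusted p = 7.24e-14). Both adult means, 4.10 and 4.42, lie under the expression limit, so the size of this difference is not exact. The level was flat from E10.5 to E12.5, with means of 6.17, 6.21 and 6.25. It dropped by 0.55 (SE 0.14) from E12.5 to E13.5 (adjusted p = 0.0415). The E13.5 mean was 5.70 and the E14.5 mean 5.87, and E14.5 did not differ past the test from E12.5. The second *Gata4* probe set, 1418864_at, stayed between 2.75 and 3.13 in every stage, below the expression limit.

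*Gata5*, which is known from the endocardium and its cushions, was the member with the widest embryonic range. Its arrays read 6.94, 6.57 and 6.76 at E10.5, 5.52, 5.81 and 5.07 at E13.5, 4.33, 4.08 and 4.15 at E15.5, and 3.28, 3.06 and 3.23 at E17.5. The stage means lay under the expression limit from E14.5 on and between 3.02 and 3.21 from E17.5 on, where differences have little meaning. As fitted, E10.5 exceeded E19.5 by 3.64 (SE 0.16, adjusted p = 2.74e-17), which is not an exact size because the E19.5 mean of 3.12 is under that limit, and *Gata5* was the 1 member past the DEG limits in that comparison, against 1.48% of probe sets. E19.5 and young adult differed by -0.09 (95% interval -0.42 to 0.24, adjusted p = 0.737). Its second probe set, 1450125_at, was also higher at E10.5 than at E19.5, over a smaller range, with means of 5.32 and 4.0 (1.32, adjusted p = 1.83e-06). It changed by -0.69 from E10.5 to E11.5 (adjusted p = 0.0475). From E13.5 to E19.5 its means lay between 3.95 and 4.34, under the limit, without the further fall of the leading probe set.

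*Gata6*, a GATA factor of myocardium and vascular smooth muscle, had its highest mean at E12.5 (9.24, SD 0.13, n = 3), with 9.09, 9.31 and 9.32 in the female, male and mixed arrays. Its means did not differ past the test between E12.5 and E10.5, E11.5 or E13.5. It was 8.16, 7.79 and 7.39 at E19.5 and 6.47, 6.23 and 6.48 in young adults, a difference of 1.38 (SE 0.18, adjusted p = 5.14e-07). The lowest embryonic value, 7.30, belonged to the mixed array of E17.5, whose partners read 8.03 and 8.21. That array was also the lowest of its stage for *Nkx2-5* (6.92 against 7.79 and 7.79), *Mef2a* (8.27 against 9.13 and 9.34) and *Hand2* (8.33 against 8.83 and 8.59). The same held for *Mef2c* (9.70 against 9.95 and 10.00), *Myocd* (10.06 against 10.21 and 10.16) and *Srf* (6.05 against 6.27 and 6.31). It was the highest for *Gata4* (5.68) and *Hand1* (5.79). Its level of the spiked hybridization controls, described below, was 12.01, against 10.95 and 11.60. The part of this level was not tested.

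The 3 probe sets of *Gata6* disagreed before birth. The leading one, 1425464_at, was 0.91 higher at E10.5 than at E19.5 (adjusted p = 0.00018), 1425463_at was lower by 0.36 (-0.36, adjusted p = 0.0464), and 1443081_at differed by -0.33 (adjusted p = 0.158). Against young adult at E19.5, 1425463_at was also higher (0.79, adjusted p = 0.00011), while 1443081_at differed by 0.06 (adjusted p = 0.857). The course of *Gata6* within embryonic life therefore depends on the probe set read.

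*Nkx2-5*, the homeobox factor that marks cardiac progenitors and myocardium, has 1 probe set. The E10.5 arrays read 8.14, 8.23 and 8.32, and the E19.5 arrays 7.13, 6.84 and 7.12. Young adults had 5.47, 5.09 and 5.35, and old adults 5.79, 5.64 and 5.91. Its stage means ran in the order of age from E10.5 to E19.5 without exception, and no neighbouring pair of embryonic stages in that order passed the test. In the step from E19.5 (7.03, SD 0.16) to the young adult it dropped by 1.72 (SE 0.17, adjusted p = 1.27e-09). The difference between old and young adult, 0.47 (SE 0.17), did not pass the test (adjusted p = 0.0783).

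The HAND genes differed from each other in these arrays. *Hand2*, a factor of the right ventricle, outflow tract and neural crest, read 9.06, 9.04 and 9.24 at E10.5, 9.20, 9.29 and 9.12 at E13.5, 8.61, 8.34 and 8.13 at E19.5 and 6.77, 6.71 and 6.62 in young adults. Its highest mean, 9.27 at E11.5, did not differ past the test from any stage up to E16.5. E19.5 exceeded young adult by 1.66 (SE 0.18, adjusted p = 1.02e-08). Old adult arrays spread widely, at 6.88, 7.42 and 6.19. The other *Hand2* probe sets, 1422221_at and 1443854_at, did not reach the expression limit, and the first went the other way between E10.5 and young adult (-0.60, adjusted p = 0.0134). *Hand1*, a factor of the left ventricle and outer curvature, stayed between 4.91 and 5.79 in all 36 arrays, close to the expression limit of 5. Its stage means ranged from 5.06 at E14.5 to 5.49 in old adults, a difference that did not pass the test (adjusted p = 0.0667). The 95% interval of its difference between E10.5 and young adult was -0.49 to 0.26. The second *Hand1* probe set, 1448750_at, had stage means from 3.54 at E19.5 to 3.93 in young adults, under the limit. With signal this near or under the limit, the flat course of *Hand1* and its contrast with *Hand2* have little meaning.

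The MEF2 genes covered a narrower range of stage means than the factors above other than *Hand1*. *Mef2a*, the main MEF2 factor of the postnatal heart, had stage means from 8.50 in young adults to 9.18 at E16.5, and the interval for E10.5 against young adult was -0.15 to 0.76. *Mef2c*, which acts early in the heart fields, read 9.44, 9.55 and 10.06 at E10.5, 10.46, 10.29 and 10.14 at E15.5, and 9.33, 9.30 and 9.42 in young adults. Its highest mean, 10.30 (SD 0.16, n = 3) at E15.5, exceeded the old adult mean of 9.13 by 1.17 (adjusted p = 1.47e-07). At E19.5 *Mef2c* was higher than in young adults by 0.43 (SE 0.15, adjusted p = 0.0325), and this call was lost when the E19.5 female or mixed array or the young adult female or male array was left out (0.39 to 0.43, adjusted p from 0.0626 to 0.102).

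The probe sets of both genes went separate ways, shown in the plot of stage means by probe set. The 4 other *Mef2c* probe sets were all higher at E10.5 than at E19.5, by 0.79 to 1.07 (adjusted p from 2.49e-06 to 0.0161), where the leading one differed by -0.09 (adjusted p = 0.616). Their Pearson's r with the leading probe set over the 12 stage means was between -0.79 and -0.11. Of the 5 other *Mef2a* probe sets, 1425426_a_at was higher in E19.5 hearts, with a mean of 5.45, than in E10.5 hearts (4.32, adjusted p = 0.00274) and young adults (3.99, adjusted p = 0.000273). The probe sets 1452347_at, 1427186_a_at and 1421252_a_at had their highest means in old adults (9.17, 8.43 and 7.5). Their lowest means were at E11.5 (8.06, 7.46 and 6.61). Which transcripts each probe set reads is not given in the sources used here.

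**Figure D2:**
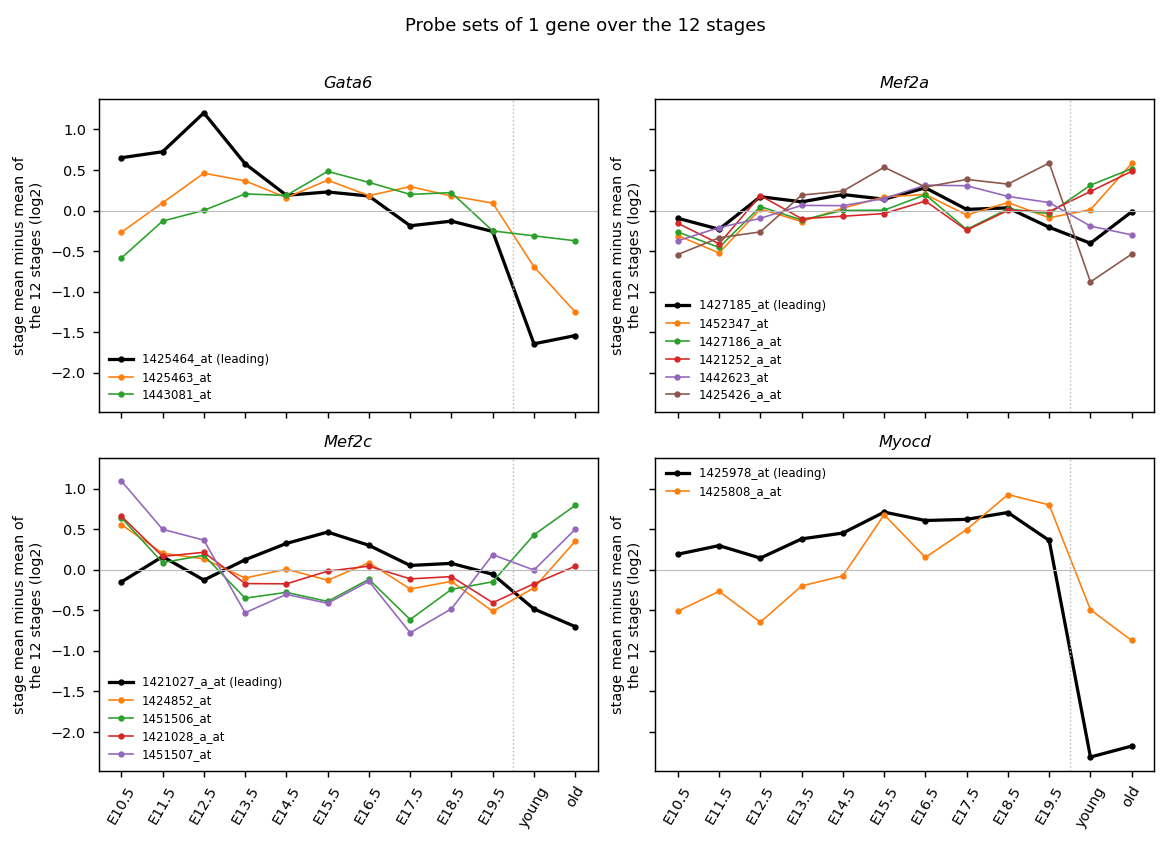
Stage means of every probe set of *Gata6*, *Mef2a*, *Mef2c* and *Myocd*, each minus its own mean over the 12 stages (y axis, log2), by stage (x axis); the leading probe set is the thick black line. For *Mef2c* the leading probe set is lowest in the adult stages while 1451506_at has its highest mean, 7.36, in old adults.

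*Myocd*, the coactivator that directs SRF to muscle genes, had the sharpest step of the set. The 30 embryonic arrays lay between 9.41 and 10.31, and the 6 adult arrays between 6.87 and 7.70. At E19.5 the arrays read 9.88, 9.62 and 10.14, and in young adults 7.14, 7.21 and 7.29, a 6.37-fold difference (log2 2.67, SE 0.15, adjusted p = 1.18e-14). *Myocd* was the 1 member past the DEG limits in this comparison, against 0.818% of probe sets. Between E10.5 and E19.5 it differed by -0.17 (95% interval -0.48 to 0.14). Its second probe set, 1425808_a_at, was 1.31 lower at E10.5 than at E19.5 (-1.31, adjusted p = 0.00073), reached its highest mean, 6.44, at E18.5, and was 1.29 higher at E19.5 than in young adults (adjusted p = 0.00123).

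*Srf*, the MADS box partner of myocardin, was highest at E10.5 and lower in young adults. The E10.5 arrays read 7.52, 7.73 and 7.18. The later ones read 7.13, 6.87 and 6.53 at E11.5, 6.96, 7.28 and 7.10 at E12.5, 6.32, 6.46 and 6.31 at E13.5, and 6.78, 6.6 and 5.83 at E19.5. No step from one day to the next passed the test. Young adult arrays lay close together at 5.83, 5.65 and 5.65. The difference between E10.5 and young adult was 1.76 (SE 0.26, adjusted p = 9.79e-07), and the second probe set, 1418256_at, had 0.95 (adjusted p = 6.04e-06). With the level of the hybridization controls as a covariate, the leading difference was 0.49 (adjusted p = 0.489). At E19.5 *Srf* exceeded young adult by 0.69 (SE 0.26, adjusted p = 0.0445), and 5 of the 6 ways to leave out 1 array ended this call (adjusted p from 0.058 to 0.223).

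The level of the spiked bacterial hybridization controls moved with stage as well, with a mean of 9.90 in E10.5, 11.16 in E19.5, 12.17 in young adult and 11.37 in old adult arrays. With their level in the model, *Gata4*, *Gata5*, *Gata6*, *Nkx2-5*, *Hand2* and *Myocd* kept their higher level at E10.5 than in young adults (1.41 to 3.39, adjusted p at most 0.000802). *Mef2a* turned to -1.29 (adjusted p = 0.00093). The part of these controls in the results was not tested.

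**Figure D3:**
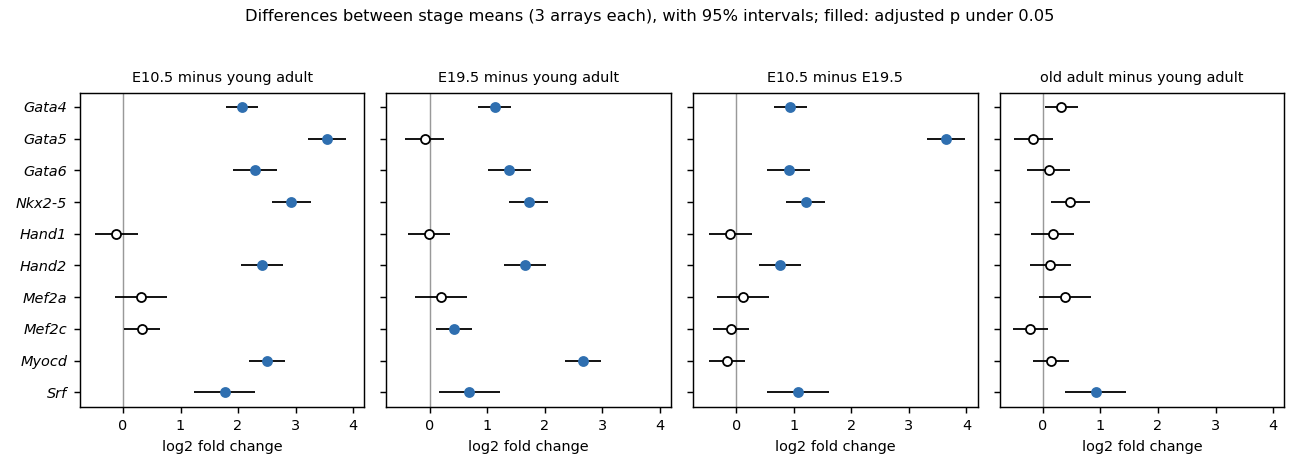
Log2 fold changes (x axis) of the leading probe set of each gene (y axis) in 4 comparisons of stage means of 3 arrays, with 95% intervals as bars and filled points for an adjusted p under 0.05. *Myocd* is 2.67 above young adult at E19.5 and does not differ past the test between E10.5 and E19.5, whereas *Gata5* is 3.64 higher at E10.5 than at E19.5 and -0.09 from young adult at E19.5.

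Against young adult, 6 to 9 members were higher at each stage from E11.5 on, with the fewest at E17.5 and E18.5. The share of all probe sets that were higher fell with stage as well. The count was 8 at E11.5 (24.3% of all probe sets), 9 at E12.5 (24.2%), 8 at E13.5 (22.3%), 9 at E14.5 (21.8%), 9 at E15.5 (21.2%) and 9 at E16.5 (20.5%). At E17.5 (18.4%) and E18.5 (17.7%) it was 6 each, and at E19.5 it was 7, where 15.5% of all probe sets and 29.3% of the expressed ones were higher and 13.6% were lower. 0 leading probe sets were lower at any of these stages. Of all 28 probe sets of the members, 11 to 14 were higher and 0 to 4 lower at each stage. The share of all probe sets that were lower is given here for E19.5 alone. By leading probe set, *Mef2c* passed at each stage from E11.5 on, and *Mef2a* at E12.5 and from E14.5 to E16.5. *Mef2c* 1451506_at was lower than young adult from E13.5 to E15.5 and at E17.5 and E18.5 (adjusted p at most 0.041). *Mef2c* 1421028_a_at was higher at E12.5 and 1451507_at lower at E17.5. *Mef2a* 1452347_at, 1427186_a_at and 1421252_a_at were lower at E11.5 (adjusted p at most 0.041). *Mef2a* 1425426_a_at from E13.5 to E18.5 and 1442623_at from E16.5 to E18.5 were higher (adjusted p at most 0.0494). All of these comparisons share the 3 young adult arrays. The 7 members of E19.5 were *Gata4*, *Gata6*, *Nkx2-5*, *Mef2c*, *Hand2*, *Myocd* and *Srf*. The median log2 fold change at E19.5 was 0.91 over the 10 members, -0.04 over all probe sets and 0.13 over the expressed ones.

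Within embryonic life, 6 members were higher at E10.5 than at E19.5, namely *Gata4*, *Gata5*, *Gata6*, *Nkx2-5*, *Hand2* and *Srf*, where 21.8% of all probe sets and 39.0% of the expressed ones were higher and 23.7% were lower. With the hybridization controls in the model, *Gata6* (0.42, adjusted p = 0.206), *Hand2* (0.55, adjusted p = 0.118) and *Srf* (0.37, adjusted p = 0.499) did not pass. A line through the 30 embryonic arrays gave slopes that passed for 7 members. Of these, 6 fell, among 25.4% of all probe sets and 45.0% of the expressed ones. *Gata5* changed by -0.47 per day (SE 0.02), *Gata6* by -0.14, *Nkx2-5* by -0.12, *Gata4* by -0.11, and *Srf* and *Hand2* by -0.10 each. The other *Gata6* probe sets, 1425463_at and 1443081_at, had slopes of 0.02 and 0.04, which did not pass (adjusted p = 0.341 and 0.0667). *Myocd* rose by 0.05 per day (SE 0.01, adjusted p = 0.00152), among 42.1% of all probe sets and 28.8% of the expressed ones. With the hybridization controls in the model, the slopes of *Srf* (-0.01, adjusted p = 0.783) and *Myocd* (0.01, adjusted p = 0.576) did not pass.

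From day to day, few steps passed. Between E12.5 and E13.5, where 1.25% of probe sets changed, *Gata4* fell as given above, and *Gata5* fell by 0.75 (SE 0.16, adjusted p = 0.0212). Between E13.5 and E14.5, where 0.0599% changed, *Gata5* fell by a further 0.86 (SE 0.16, adjusted p = 0.0212). No leading probe set passed in the other 7 steps, in which 2.53% (E10.5 to E11.5), 0.0976%, 0.0377%, 0.0111%, 0.0133%, 0% and 1.33% (E18.5 to E19.5) of probe sets changed in order of age.

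The share of the difference between E10.5 and young adult that was already lost at E19.5 varied among the members. It was 60.8% for *Srf* (44.5% to 71.6% when each of the 9 arrays was left out in turn), 45.3% for *Gata4* (41.7% to 48.3%), 41.1% for *Nkx2-5* (37.9% to 42.8%), 39.6% for *Gata6* (31.2% to 48.0%) and 31.2% for *Hand2* (26.5% to 36.4%). For *Myocd* the share was -6.79% (-11.9% to -0.759%), since its mean was slightly higher at E19.5 than at E10.5. For *Gata5* the value, 102%, is set by a level under the expression limit at both E19.5 and young adult. The range of *Srf* overlaps those of *Gata4* and *Gata6*, the ranges of *Gata4*, *Nkx2-5* and *Gata6* overlap, and so do those of *Gata6* and *Hand2*. No test was made between genes. Each share is that of the leading probe set, and for *Gata6* the part before birth depends on the probe set read.

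Over the 12 stage means, the factors that declined slowly ran close together. Pearson's r was 0.99 for *Nkx2-5* and *Hand2*, 0.97 for *Gata4* with *Nkx2-5* and with *Gata6*, and 0.96 for *Gata4* and *Hand2*. *Myocd* had an r of 0.90 with *Hand2* over 12 stages and of -0.54 over the 10 embryonic stages alone, so the former rests on the step to the adult. *Gata5* and *Srf* had an r of 0.75. These values describe 12 points that share their arrays, scaling and stage order, and they carry no test.

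Genes with a profile most like a member were named by r over the 12 stage means among 11316 expressed genes. They were picked as the highest of these values and carry no test. For *Hand1*, with a signal near the expression limit, they have little meaning. *Gata4* was followed most closely by *Zcchc3*, *Tbx18* and *Zfp740* (r = 0.990, 0.988 and 0.987), *Gata6* by *Sox4*, *Myh10* and *Bmpr1a* (0.986, 0.982 and 0.982), and *Nkx2-5* by *Clspn*, *Cks1b* and *Ppapdc1b* (0.995, 0.994 and 0.994). *Gata5* had *Hba-x*, an embryonic globin gene, *Tenm2* and *Hapln1* (0.993, 0.993 and 0.990). *Hand2* had *Slc22a17*, *Marcksl1* and *Suz12* (0.997, 0.997 and 0.996), and *Myocd* had *AI317158*, *Reps1* and *Zfp28* (0.996, 0.993 and 0.991). *Srf* had *D5Wsu152e*, *Gm26853* and *Tlk1* (0.971, 0.968 and 0.960), *Mef2c* had *Nucks1*, *Shprh* and *Helz* (0.97, 0.967 and 0.967), *Mef2a* had *9530006C21Rik*, *D4Ertd76e* and *Zscan26* (0.912, 0.883 and 0.877), and *Hand1* had *Sdhb*, *1110007C09Rik* and *Kifc3* (0.904, 0.894 and 0.872).

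The other GATA factors moved in both directions, and both FOG cofactor genes were higher at E10.5 than in young adults. Of these 5 genes, 3 were higher and 1 lower at E10.5, where 27.1% of all probe sets were higher and 35.9% lower. The FOG genes *Zfpm2* (2.98, adjusted p = 2.78e-08) and *Zfpm1* (1.53) and the GATA factor *Gata3* (2.11) were higher. *Gata2*, a GATA factor of blood and endothelium, was lower (-0.94, adjusted p = 2.01e-05), and *Gata1*, the erythroid factor, stayed under the expression limit. *Zfpm2* was also higher at E19.5 than in young adults (1.48, adjusted p = 0.002).

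The E proteins, with which HAND factors dimerize, did not move as 1 group. *Tcf3* (1.61, adjusted p = 9.77e-11) and *Tcf12* (0.86, adjusted p = 0.00014) were higher at E10.5 than in young adults, and *Tcf4* was lower (-1.93, adjusted p = 4.41e-12). Over all probe sets, 27.1% were higher and 35.9% lower in this comparison. Of 4 histone deacetylases that bind MEF2, *Hdac9* was higher at E10.5 (2.15, adjusted p = 2.61e-09), *Hdac7* lower (-0.39, adjusted p = 0.00442), and *Hdac4* and *Hdac5* did not pass. The further MEF2 gene *Mef2d* differed by -0.06 (adjusted p = 0.753), and *Mef2b*, under the expression limit, was lower (-0.95, adjusted p = 0.000202). Of the SRF cofactors and *Hopx*, an inhibitor of SRF, 0 of 3 passed between E10.5 and young adult, while *Hopx* was higher at E19.5 (1.35, adjusted p = 1.35e-05).

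Genes with sites for these factors moved in both directions. Of 9 cardiac genes with GATA, NKX2-5, MEF2 or SRF sites in their promoters, 3 were higher and 1 lower at E10.5 than in young adults, and 5 did not pass. In this comparison, 27.1% of all probe sets and 48.5% of the expressed ones were higher, and 35.9% of all were lower. The counts of this and the next lists were not tested against these shares. The sodium-calcium exchanger gene *Slc8a1* (3.78, adjusted p = 7.21e-12), cardiac actin *Actc1* (2.03) and the atrial light chain *Myl7* (1.94) were higher, and the muscle creatine kinase gene *Ckm* was lower (-6.40, adjusted p = 7.81e-16). Of 6 smooth muscle genes with paired SRF sites, 2 were higher at E10.5, *Cnn1* (2.22) and *Acta2* (1.36), and 3 were lower, among them *Myh11*, smooth muscle myosin (-5.34, adjusted p = 2.63e-17). Of 6 immediate early SRF targets, which include *Srf* itself, 4 were higher at E10.5, *Fos* (2.5, adjusted p = 0.0231), *Egr1* (1.85, adjusted p = 0.0391), *Srf* and *Vcl* (1.60).

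Markers of other cell types moved with stage too. From E10.5 to young adult the mean level of 5 epicardial genes went from 5.99 to 4.49 with 4 and 1 of them above 5, and that of 5 erythroid genes from 6.23 to 3.92 with 2 and 1 above 5. The mean of 4 macrophage genes went from 3.92 to 7.06 with 0 and 3 above 5, and that of 6 endothelial and endocardial genes from 6.38 to 7.10. For 6 fibroblast and cushion genes it was 7.81 and 8.08, and for 4 neural crest and glia genes 5.36 and 5.25. Genes within a list differed. Epicardial, erythroid and fibroblast lists each had 3 genes higher at E10.5 and 1 lower. The endothelial list had 1 higher and 4 lower, neural crest 1 and 2, and macrophage 0 and 4. Over all probe sets, 27.1% were higher and 35.9% lower. The 5 cardiomyocyte genes had a mean of 9.98 at E10.5, 11.34 in E19.5 and 11.21 in young adult hearts. Myoglobin (*Mb*) differed most among them, with 6.12, 10.64 and 12.62, while *Actn2* (10.46, 10.94 and 9.98) and *Ryr2* (8.34, 8.97 and 7.81) had their lowest means in young adults. The part of these shifts in the levels of the factors was not tested.

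With age, 1 of the 10 members changed. *Srf* was higher in old than in young adults by 0.92 (SE 0.26, adjusted p = 0.0287), among 3.83% of all probe sets and 7.08% of the expressed ones, and 0 members were lower (3.13%). The old adult arrays read 5.85 in the female, 7.39 in the male and 6.66 in the mixed sample. The female array differed little from the young adult ones, and without the male array the difference was 0.54 (adjusted p = 0.24). Leaving out the old mixed array, the young adult male array or the young adult mixed array also ended the call (0.91, 0.89 and 0.89, adjusted p = 0.0683, 0.0794 and 0.0788). The second *Srf* probe set differed by 0.24 (adjusted p = 0.374).

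Other immediate early genes had the same order among these arrays. *Egr2* read 3.15, 7.76 and 5.73 in the old female, male and mixed arrays and at most 2.85 in young adults, and it was the other gene of the list that passed (2.78, adjusted p = 0.00577). *Egr1* read 9.02, 11.37 and 10.47, and *Junb* 5.07, 7.13 and 6.29. *Fos* did not follow, with 7.82, 8.28 and 7.80 against 7.58 to 8.84 in young adults. These genes and the order of the arrays were singled out after the values were seen, and its part in the *Srf* difference was not tested.

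**Figure D4:**
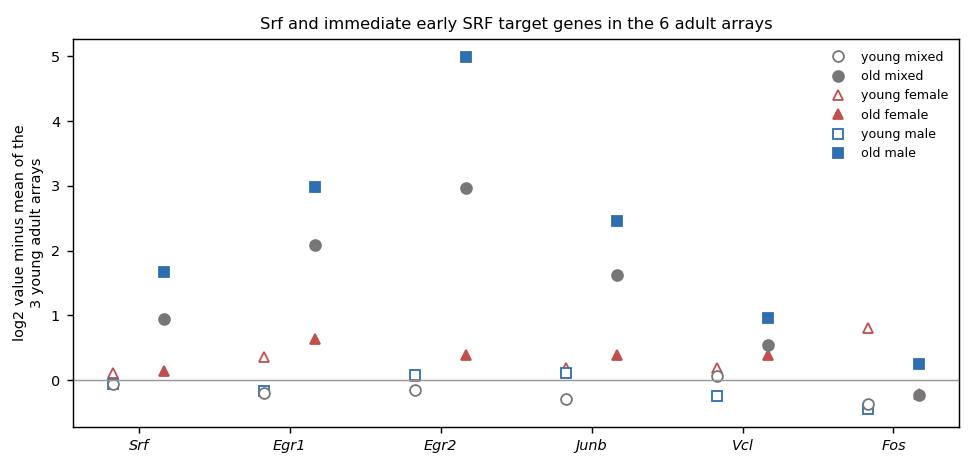
Log2 values of *Srf* and 5 immediate early SRF target genes in the 6 adult arrays, each minus the gene's mean over the 3 young adult arrays (y axis); open symbols are young and filled symbols old adults, with shapes for the sex label. The old male array is the highest of the old adult arrays for all 6 genes, and the old female array of *Srf*, 5.85, lies next to the young adult arrays.

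For the other members no difference with age passed the test. The differences between old and young adults for the leading probe sets of the other 9 lay between -0.22 for *Mef2c* and 0.47 for *Nkx2-5*. The 95% intervals excluded a change of 1 log2 unit in either direction for each of them. The *Gata6* probe set 1425463_at was lower in old adults (-0.56, adjusted p = 0.0196), where the leading one differed by 0.10. The smooth muscle list changed more, with 4 of 6 genes lower in old adults, where 3.13% of all probe sets were lower. These were *Cnn1* (-1.28), *Actg2* (-1.05), *Myh11* (-1.0) and *Acta2* (-0.67), while *Myocd* differed by 0.14 (adjusted p = 0.641).

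No member differed between male and female arrays past the test. Over 9 pairs of a male and a female array from E13.5 to old adult, 0 of the 10 leading probe sets passed the test of male minus female in limma, among 0.0488% of all probe sets. The unadjusted p was under 0.05 for 0 of them as well, and the smallest was 0.166 for *Mef2a* (-0.12, SE 0.08, higher in the male array in 2 of 9 pairs). The differences of the 10 ranged from -0.12 to 0.06. In single pairs the widest was *Srf*, with 1.54 more in the old male than in the old female array.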

How the data were processed

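RNA from hearts of OF1 mice was hybridized to 1-colour arrays with 45101 probe sets. The deposited values are log2 intensities, which the authors made by robust multi-array averaging (background subtraction, quantile normalization, probe set summary). The submitters' processing notes also name Expression Console and Partek 6.6. The values were used as deposited. In R 4.3.3, limma 3.58.1 fitted 12 stage means to the 36 arrays (prior degrees of freedom 6.96), a slope on embryonic day to the 30 embryonic arrays, and male minus female with stage as a block (E12.5 left out, as in the methods). P-values were adjusted by Benjamini-Hochberg over all probe sets in each comparison. Within a stage, Pearson's r between arrays was 0.969 to 0.996, and 0 pairs were identical. Replicates are separate samples, and from E12.5 on the spread within a stage includes the sex label. The sample titles change their prefix within E16.5, from none to "heart_mRNA", and again in the adults, to "heart" alone. E10.5, E19.5 and the adult arrays thus differ from each other in it. What it marks is not given in the sources used here.

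Members, gene lists and tests were chosen with earlier results of these data known. Named are the members, at most 4 passing genes of each list by size at E10.5 against young adult (lists of up to 5 genes whole), and 3 similar genes a member. Alternatives were other scalings, filter, variance model, covariate, sex block, arrays in the fit, arrays left out and other probe sets. The code was tested on simulated data. Gene names are those of the array annotation, in which 6937 probe sets carry no gene ID.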

Additional observations from a re-analysis of the deposited data

How the results depend on the processing

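Quantile renormalization, centring each array on the median of expressed probe sets, a filter before the fit, a robust variance model, the hybridization controls as a covariate, the sex label as a block, a fit on the arrays of the 2 stages, arrays left out in turn and the other probe sets were tried. For E10.5 against young adult, the median of all probe sets was -0.19 as reported, -0.05 after renormalization, -0.71 after centring and 0.08 with the covariate. Counts here are of calls in either direction. The 7 members called at E10.5 against young adult became 7 to 9 under the other settings and 7 to 8 without 1 array (with *Mef2a* lower under the covariate and *Hand1* lower after centring), but 3 where all probe sets of a gene had to agree. Those past the DEG limits went from 6 to 3 after renormalization, 2 after centring and 1 where all probe sets had to agree, and were 5 to 6 without 1 array. At E19.5 against young adult, 7 became 2 and the 1 DEG 0 where all probe sets had to agree, and 5 to 6 without 1 array. From E10.5 to E19.5, 6 became 3 and the 1 DEG 0 where all had to agree. In old against young adults, the 1 member became 0 with the covariate, on the 6 arrays of these stages alone and where all probe sets had to agree, 2 where any probe set counted, and 0 to 1 without 1 array. Trends went from 7 members to 10 after renormalization or centring and 5 with the covariate.

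Signs turned mostly where a difference was near 0. With the covariate, *Mef2a* was -1.29, -0.51 and -0.77 (E10.5 and E19.5 against young adult, E10.5 against E19.5) and -0.18 in old against young, *Hand1* 0.42, 0.22 and 0.19, *Mef2c* 0.20 (E10.5 against E19.5), with a slope of -0.04 per day, and *Gata6* -0.21 and *Hand2* -0.0021 in old against young. After centring and after renormalization, *Mef2a* was -0.22 and -0.099 and *Mef2c* -0.19 and -0.017 at E10.5 against young adult, and *Mef2a* -0.23 and -0.29 at E10.5 against E19.5. In old against young, *Gata6* was then -0.042 and -0.066, *Hand2* -0.013 and -0.058, and *Myocd* -0.0085 and -0.037.

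Other probe sets turned the sign as follows. At E10.5 against young adult, *Gata4* gave -0.33, *Gata6* -0.27, *Hand2* -0.60, *Myocd* -0.018 and *Mef2a* -0.39, -0.58, -0.18 and -0.32. At E19.5 against young adult, *Gata4* gave -0.067, *Gata5* 0.064, *Hand2* -0.39, *Mef2a* -0.25, -0.35 and -0.099 and *Mef2c* -0.23, -0.29 and -0.58. At E10.5 against E19.5, *Gata4* gave -0.26, *Gata6* -0.36 and -0.33, *Hand1* 0.097, *Hand2* -0.21 and -0.43, *Mef2a* -0.14, -1.13, -0.23, -0.47 and -0.22 and *Mef2c* 1.07, 1.07, 0.79 and 0.91. In old against young, *Gata4* gave -0.17, *Gata5* 0.17, *Gata6* -0.56 and -0.061, *Hand1* -0.27, *Hand2* -0.55 and -0.026, *Mef2a* -0.11, *Mef2c* 0.22, 0.58, 0.36 and 0.50 and *Myocd* -0.38.

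Without 1 array, the range crossed 0 at E19.5 against young adult for *Gata5* (-0.21 to 0.095) and *Hand1* (-0.12 to 0.074), at E10.5 against E19.5 for *Mef2a* (-0.096 to 0.27), *Mef2c* (-0.28 to 0.028) and *Hand1* (-0.21 to 0.0084), and in old against young for *Gata5* (-0.32 to 0.017), *Gata6* (-0.044 to 0.21), *Hand2* (-0.17 to 0.45) and *Myocd* (-0.042 to 0.37). *Mef2c* passed at E10.5 against young adult without the E10.5 array 1 or 2 (0.46 and 0.40, adjusted p = 0.021 and 0.0485 in limma). The cause of these changes was not tested. Signal limits each difference with a side at or under a mean of 5, among them *Gata5* from E14.5 on, *Gata4* in both adult stages and the 4 probe sets that never had a stage mean above 5. E10.5 and E11.5 share sample numbers 1 to 3 in the labels. With the replicate block on these 6 arrays, 0 members differed, as without it, while calls over all probe sets went from 205 to 126. Deviations of same-numbered arrays had r of 0.22, -0.25 and 0.17, so the numbers were not taken as pairs.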
